A study of Mus musculus with 8 samples.

Results

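The Zeb2 locus was taken as all C/EBPα regions on mouse chromosome 2 between 44.93 and 45.45 Mb (mm10), which covers the Zeb2 gene, at chr2:44983512-45117442, and its upstream domain. Peaks of the 6 anti-C/EBPα lists were merged wherever they shared at least 1 bp, and 71 of the 259446 merged regions lay in this window. The assay was CUT&RUN, in which an antibody brings a nuclease to a bound protein so that the DNA beside it is cut free and sequenced. It was run on Lin- KIThi-int FLT3+ cells, early progenitors sorted from mouse bone marrow. The cells came from mice with variants of the Zeb2 enhancer at -165 kb, which the labels name DC and DE, or from WT mice; the labels give the alleles by these names alone, the peak names in the deposited lists carry D123 for DC and DE234 for DE, and age and strain were not given in the sources used here. DC, DE and WT had 2 libraries each, replicate 1 in batch 1 and replicate 2 in batch 2. Whether replicates came from separate animals is not stated in the labels, and p-values measure only the spread between these libraries. No expression was measured, so the sort could not be checked against marker genes.

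C/EBPα is a leucine-zipper transcription factor that binds DNA as a dimer and directs progenitors toward granulocytes and monocytes. Zeb2 encodes a zinc-finger repressor that binds E-boxes and is needed for plasmacytoid dendritic cells, cDC2 and monocytes, whereas cDC1, which cross-present antigen to T cells, form when it is silenced. Its enhancer far upstream is known to carry C/EBP sites at which NFIL3, a repressor with a related zipper, and C/EBP proteins compete, and mice in which those sites are mutated together lack cDC2. ID2 acts in the same circuit by keeping E proteins off DNA.

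Zeb2 is transcribed from the minus strand, so higher coordinates lie upstream. The RefSeq promoter table (GRCm38.p6, the mm10 assembly) gives 4 start sites for the gene. The outermost of them, at the gene's upper end, is shown because a C/EBPα region that only the WT libraries had lay over it. The 250 bases before this start, chr2:45117443-45117692 on the minus strand, are printed 5′ to 3′, with capitals for the letters that match the C/EBP pattern TTGCNNAA.

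Zeb2 promoter: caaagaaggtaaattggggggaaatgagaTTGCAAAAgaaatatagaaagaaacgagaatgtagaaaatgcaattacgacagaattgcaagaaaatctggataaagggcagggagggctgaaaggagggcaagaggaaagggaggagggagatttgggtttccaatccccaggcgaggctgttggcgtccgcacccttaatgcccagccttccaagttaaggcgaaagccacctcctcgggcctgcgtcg

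Both strands were searched for TTGCNNAA (TTNNGCAA on the other strand), for the palindrome TTGCGCAA that it includes, and for the E-box pattern CANNTG, which reads the same on both strands. This window held 1 match to TTGCNNAA, the word TTGCAAAA that begins at -221 from the start, and none to TTGCGCAA or to CANNTG. Among 32851 mouse promoter windows of the same length, 9.56% held TTGCNNAA, 0.164% held TTGCGCAA and 66.2% held CANNTG. The windows before the other start sites held no match to any of these patterns. No genome sequence was used here, so the letters under the distal regions were not read.

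The libraries differed widely in how much they called. DC replicates 1 and 2 had 40 and 10 of the 71 regions (56.3% and 14.1%), DE replicates 17 each (23.9%), and WT replicates 24 each (33.8%). Over all merged regions the same libraries had 64.6% and 18.7% in DC, 19.8% and 21.5% in DE, and 30.9% and 21.4% in WT. Both DC libraries called 8 locus regions (11.3%, against 14.0% of all regions), both DE libraries 11 (15.5% against 12.9%) and both WT libraries 12 (16.9% against 12.1%). All 6 libraries shared 7 (9.86% against 9.05%), and 51 were found in 1 library alone (71.8% against 76.7%), 23 of these in DC replicate 1. The locus share was below that of all regions in both DC libraries and above it in each DE and WT library. Several of these differences were small and rested on few regions, most of the 71 being called in 1 library alone, and they were not tested.

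Signal was read as the summit pileup, the number of fragments or reads over a peak's summit; the lists do not say which of these was counted. The pileup and the local background under each summit were solved from the fold and p-value that the lists give. Between libraries they were scaled by the median difference over the 23480 regions called in all 6, and genotypes were compared within a batch as ratios of scaled pileups with 95% intervals that cover counting error only. For a library without a call, limits given as at least or at most a value used the highest pileup that could go uncalled by its p-value at the summit. These limits leave out any least width that a call needs, and they leave out counting error unless an interval is given. Sequencing depth is unknown. The median pileup over those shared regions was 58 and 24 in DC, 42 and 32 in DE and 34 and 34 in WT, so the DC libraries stood at both extremes.

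**Figure D1:**
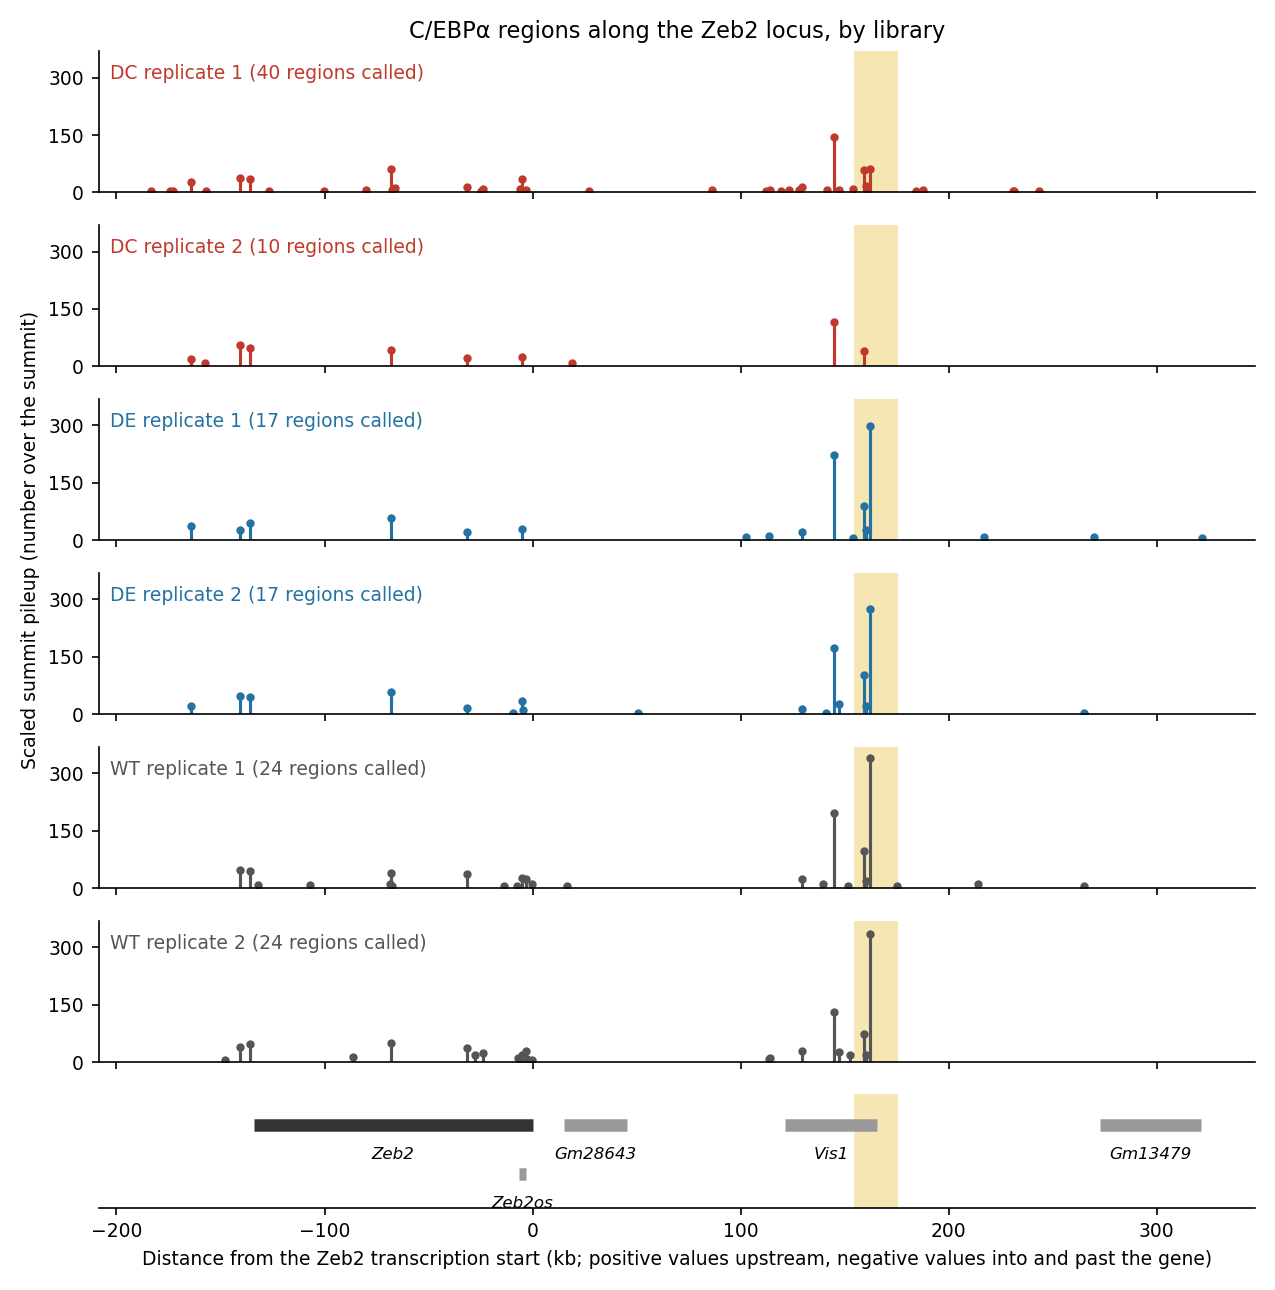
Scaled summit pileup (vertical axis, number over the summit) of every called region against its distance from the Zeb2 transcription start in kb, with DC, DE and WT libraries from top to bottom and RefSeq genes below (Zeb2 dark, non-coding genes grey). The shaded band covers 10 kb to either side of the labelled enhancer position, and the tall line at 162.2 kb is present in the DE and WT libraries, low in DC replicate 1 and absent in DC replicate 2.

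Of the 71 regions, 37 lay upstream of the gene, 24 inside it, 1 on its start and 9 past its 3′ end. Upstream, 15 fell in Vis1, a non-coding RNA gene of RefSeq at chr2:45238980-45282913, which spans the strongest group of regions of the locus. By rule, 14 regions were named: those called in both libraries of a genotype, in at least 3 libraries, or among the 3 highest pileups of the locus in a library. The other 57 were weak, with pileups of 4 to 22 and a median of 8, against a median of 36 in the named regions.

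The leading region of the enhancer was taken as the one with the highest mean scaled WT pileup within 10 kb of the labelled position. Since WT pileups chose it, its standing in WT and its comparisons with WT partly follow from the choice. The region, chr2:45279456-45279868, lay 162.2 kb upstream of the Zeb2 start, inside Vis1. Its pileup was 100 in DC replicate 1, with no call in DC replicate 2, against 357 and 243 in DE and 338 and 318 in WT. The 5 summits lay within 50 bp of each other. It was the highest region of the locus in each DE and WT library, but in DC replicate 1 it came second, and in both DC libraries the region at 144.8 kb led the locus. Among all regions ordered by pileup it stood at place 6339 in DC replicate 1, at 203 and 220 in DE, and at 155 and 103 in WT.

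A comparison within a library needs no scaling. The pileup of the leading region was 0.427 of that at 144.8 kb in DC replicate 1 and at most 0.461 of it in DC replicate 2, where up to 35 could have gone without a call. The same ratio was 1.34 and 1.58 in DE and 1.74 and 2.52 in WT. Both DC values were thus below 1 and all DE and WT values above it. Against the region at 159.5 kb the ratio was 1.06 and at most 1.296 in DC, 3.37 and 2.70 in DE, and 3.48 and 4.61 in WT. Against the summed pileup of the 7 locus regions shared by all libraries it was 0.162 and at most 0.152 in DC, 0.604 and 0.577 in DE, and 0.697 and 0.837 in WT. On each of these 3 measures the DC values lay below every DE and WT value.

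**Figure D2:**
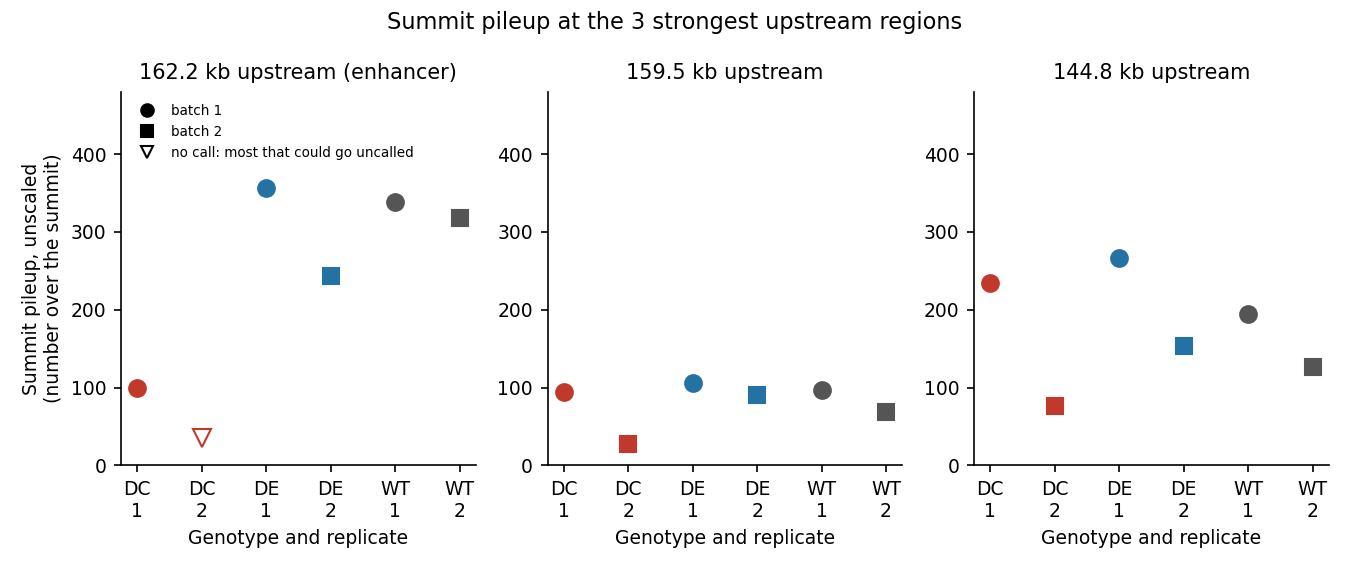
Unscaled summit pileup (vertical axis) at the regions 162.2, 159.5 and 144.8 kb upstream of Zeb2 in each library, with DC left of DE and DE left of WT. Circles are batch 1, squares batch 2, and the open triangle is the highest pileup, 35, that could go uncalled in DC replicate 2; at 162.2 kb the DC values of 100 and at most 35 stand below 243 to 357 in DE and WT.

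Set directly against DE, the leading region was 0.207 of DE in DC in batch 1 (0.164 to 0.259). Of the 37478 regions called in both of those libraries, 0.0347% had a ratio as low. In batch 2 the DC library was at least 5.13-fold lower than the DE library, with a counting interval of 3.59 to 7.53 on that limit. Against WT the DC ratio in batch 1 was 0.181 (0.143 to 0.227), with 0.0594% of regions as low, and in batch 2 DC was at least 6.22-fold lower. DE against WT gave 0.876 (0.752 to 1.02) and 0.824 (0.694 to 0.976), and 37.6% and 35.8% of regions had ratios as low. With scaling by the background floor, the lowest background of a library, DC replicate 1 stayed low, at 0.386 of DE and 0.354 of WT. The DE ratio in batch 2 then turned to 1.69, so no direction is given for DE. The DC differences were not tested between replicates, because limma used only regions with a call in all 4 libraries of a contrast. For DE against WT the limma log2 difference was -0.24, with an interval of -0.85 to 0.38 and an adjusted p of 0.999849. No difference between DE and WT was detectable there with these libraries.

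The missing call in DC replicate 2 stood on a high local background. At the leading region the background was 53.3 times the library's floor in DE replicate 2 and 45.7 times in WT replicate 2, against 1.89 times in DC replicate 1, 3.09 times in DE replicate 1 and 1.70 times in WT replicate 1. At that height a call in DC replicate 2 needed a pileup of 36, in place of 4 at the floor. The figure of 36 assumes that DC replicate 2 shared the background of DE replicate 2, as it did at all 1163 shared summit positions that were compared. Those compared had an unambiguous whole pileup and a background of at least 4 whole multiples of the unit in which it varies. The deposited fold of the region follows the background too. It was 32.6 in DC replicate 1, 62.4 and 10.7 in DE, and 104 and 7.56 in WT, so WT replicates with nearly equal pileups differed widely in fold.

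**Figure D3:**
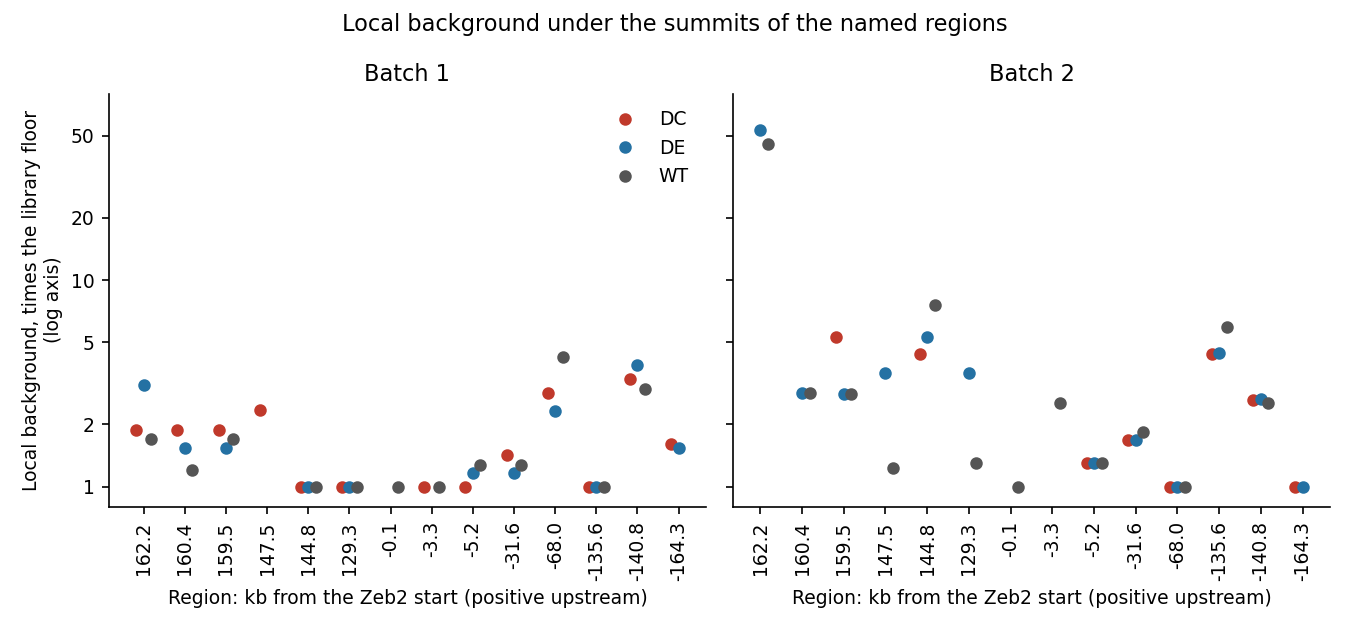
Local background under the summits of the named regions as a multiple of the library's floor (vertical log axis), by distance from the Zeb2 start and by batch, with points for DC, DE and WT. In batch 2 the region at 162.2 kb stands at 53.3 in DE and 45.7 in WT, while every other named region is below 8.

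Both strong neighbours of the leading region were called in all 6 libraries, with smaller differences. At 159.5 kb upstream, chr2:45276685-45277185 had a pileup of 94 and 27 in DC, 106 and 90 in DE, and 97 and 69 in WT. After scaling on the shared regions, both DC libraries were below both DE and both WT libraries, which did not hold with floor scaling. DC was 0.655 of DE in batch 1 (0.491 to 0.873) and 0.406 in batch 2 (0.254 to 0.631), and 17.2% and 0.602% of regions were as low. By limma the log2 difference of DC against DE was -0.96 ± 0.34 (SE, 2 libraries each; adjusted p = 0.999), and with batch as a block the adjusted p was 0.110. Against WT it was -0.78 ± 0.40 (adjusted p = 0.889), and with the block the adjusted p was 0.0615, the lowest of any locus region in any fit. None of these values passed 0.05. With floor scaling the difference of DC against WT turned to 0.08, and the batch 1 ratio to 1.16, so no direction is given for DC against WT here.

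At 144.8 kb upstream, chr2:45261918-45262496 had a pileup of 234 and 76 in DC, 267 and 154 in DE, and 194 and 126 in WT. It was the highest or second highest region of the locus in every library, and its summits lay within 27 bp. DC was 0.647 of DE in batch 1 (0.541 to 0.774) and 0.668 in batch 2 (0.501 to 0.885). Limma gave a log2 difference of -0.60 ± 0.29 (adjusted p = 0.999). DE against WT was 0.29 ± 0.33 (adjusted p = 0.999849), and the counting intervals of DE to WT reached from 0.945 to 1.38 in batch 1 and from 1.03 to 1.68 in batch 2. Under floor scaling the DC to DE ratio in batch 1 became 1.21 here and 1.22 at 159.5 kb, so the direction between DC and DE in batch 1 changed with the scaling at both regions.

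Weaker upstream regions lost their call in DC replicate 2. At 160.4 kb, chr2:45277682-45277996 had a pileup of 26 in DC replicate 1 and no call in DC replicate 2, against 32 and 20 in DE and 20 and 19 in WT. DC was 1.67-fold lower than DE in batch 1 (0.962 to 2.91) and at least 2.95-fold lower in batch 2. At 129.3 kb, also inside Vis1, chr2:45246465-45246993 had 24 in DC replicate 1 and no call in DC replicate 2, against 25 and 13 in DE and 23 and 27 in WT. Here DC was 0.709 of DE in batch 1 (0.388 to 1.29) and at least 1.92-fold lower in batch 2. With floor scaling the batch 1 ratios of DC to DE were above 1 at both, at 1.12 and 1.32. At 147.5 kb, chr2:45264801-45265031 had 12 in DC replicate 1, 23 in DE replicate 2 and 26 in WT replicate 2, and no call elsewhere. Across all locus regions called in both libraries of a batch, DC was below DE in 8 of 12 in batch 1 (53.3% of all regions were) and in 5 of 8 in batch 2 (44.7%). With floor scaling it was below DE in 1 of 12 (8.22% of all regions), the leading region, and in 7 of 8 (66.4%), so no direction is given for the locus as a whole.

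Both WT libraries called 12 regions, of which both DC libraries had 7, a share of 58.3%, against 81.8% over all 31297 such regions. Both DE libraries had 10, a share of 83.3%, against 82.7%. Library by library, DC replicates 1 and 2 had 11 and 7 of the 12 (95.6% and 82.9% over all such regions), and each DE library had 10 (86.6% and 90.8%). The shortfall in DC thus stood in replicate 2. Of the 10 regions that both WT and both DE libraries called, 3 were missing from DC replicate 2 (30.0%, against 8.74% over all regions), and all 3 lay between 129.3 and 162.2 kb upstream. DC replicate 2 also had the lowest median pileup of the 6 libraries, and the part of that in the missing calls was not tested.

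**Figure D4:**
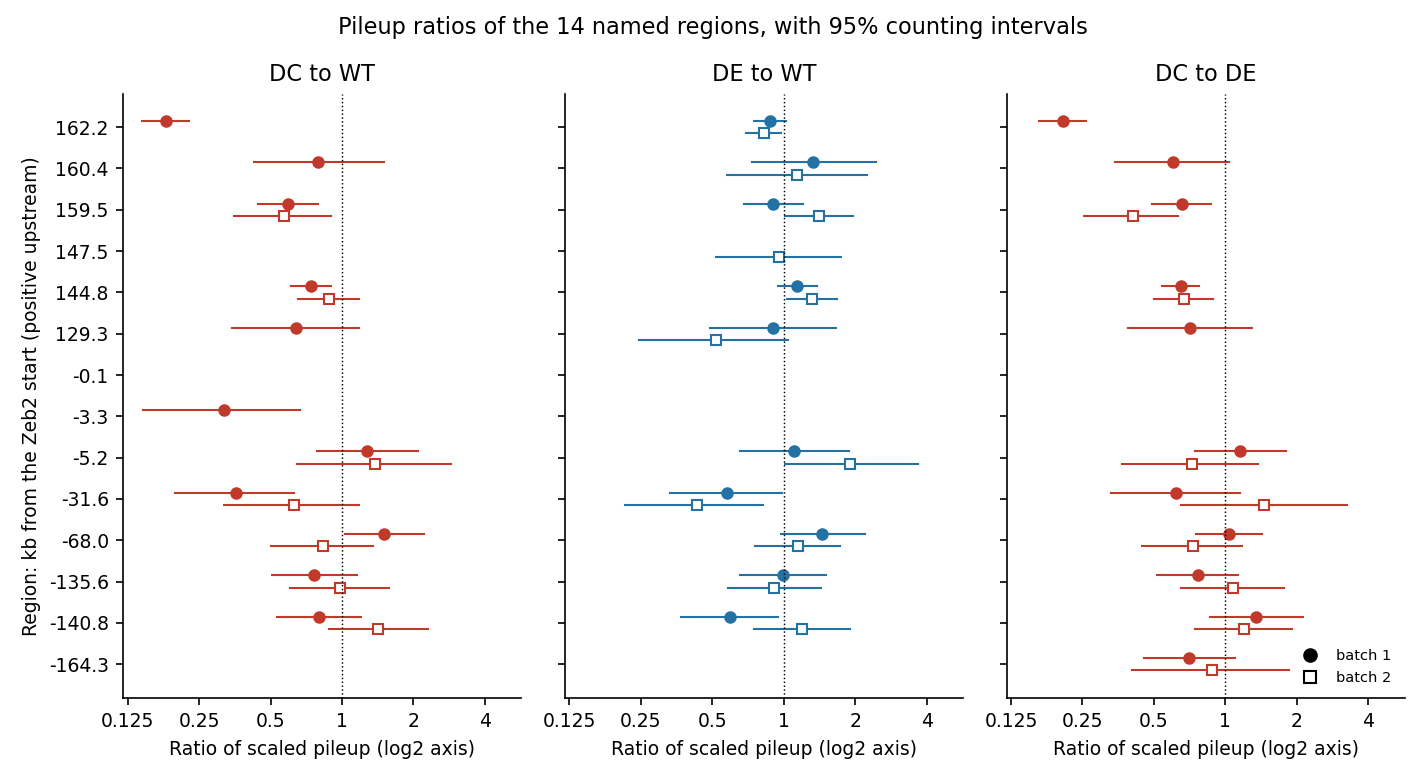
Ratio of scaled pileup (horizontal log2 axis) for DC to WT, DE to WT and DC to DE at the 14 named regions, ordered by distance from the Zeb2 start, with filled circles for batch 1, open squares for batch 2 and bars for 95% counting intervals. Pairs in which either library lacked a call have no point; the lowest ratios, 0.181 and 0.207, are those of DC at 162.2 kb.

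Inside the gene, chr2:45049259-45049706 lay 68.0 kb past the start and had the highest pileup of the gene body in every library, at 98 and 28 in DC, 70 and 52 in DE, and 40 and 49 in WT. After scaling on the shared regions its DC and WT values overlapped. Both DE values were then above both WT values (log2 difference 0.37 ± 0.37, limma adjusted p = 0.999849). With floor scaling DE replicate 1, at 37.5, was below WT replicate 2, at 44.6. Both DC values, at 72.4 and 62.5, were then above both WT values. At 31.6 kb past the start, chr2:45085664-45085949 had 21 and 15 in DC, 25 and 14 in DE, and 36 and 35 in WT. Both variants were below both WT libraries after scaling on the shared regions, though not with floor scaling. DC was 0.357 (0.198 to 0.628) and 0.626 (0.317 to 1.18) of WT, and DE 0.576 (0.331 to 0.986) and 0.431 (0.214 to 0.822). The log2 differences were -1.08 ± 0.48 in DC (adjusted p = 0.850) and -1.01 ± 0.43 in DE (adjusted p = 0.986), and neither passed. With batch as a block the adjusted p was 0.0876 for DC and 0.240 for DE. With floor scaling the DC ratio in batch 2 was above 1, and the DC and DE comparisons share the WT libraries.

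Near the start of the gene, calls clustered where Zeb2os, a non-coding RNA gene, overlaps Zeb2. At 5.2 kb past the start, chr2:45112055-45112407 was called in all libraries, with 56 and 16 in DC, 36 and 30 in DE, and 27 and 17 in WT. Its DE values were both above WT after scaling (log2 difference 0.54 ± 0.43, adjusted p = 0.999849). At 3.3 kb, chr2:45114001-45114244 had 12 in DC replicate 1 and no call in DC replicate 2 or in either DE library, against 23 and 27 in WT. The DE libraries were at least 4.62-fold lower than WT in batch 1 and at least 5.01-fold lower in batch 2. DC was 0.319 of WT in batch 1 (0.145 to 0.669) and at least 3.70-fold lower in batch 2. Of the 12 WT regions, DE lacked 2 in both libraries (16.7%, against 5.28% of all).

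The region over the start itself, chr2:45117195-45117583, was called in neither DC nor DE library and had a pileup of 11 and 6 in WT. Its summits in the WT libraries were 314 bp apart, and the printed promoter overlaps it, although the matching word lies beyond the region's upstream end. It was the only region of the 12 with no call in any variant library (8.33%, against 1.73% over all regions), and also the only one called in neither DC library (3.23% over all regions). In batch 2 a WT pileup of 6 set the DC library at least 1.37-fold and the DE library at least 1.86-fold lower, and with floor scaling these limits were 0.816-fold and 0.905-fold, so no difference was detectable there in batch 2. In batch 1 the limits were 4.49-fold for DC and 2.21-fold for DE, and 2.30-fold and 2.11-fold with floor scaling. They rest on a WT pileup of 11 against at most 4 in DC and 6 in DE, without counting error.

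Past the 3′ end of the gene the pattern ran the other way at 1 region. At 30.4 kb beyond that end, chr2:44952828-44953376 had 43 and 13 in DC and 45 and 20 in DE, with no call in either WT library. After scaling, DC was at least 3.76-fold higher than WT in batch 1 and at least 4.74-fold higher in batch 2, and DE at least 5.33-fold and 5.39-fold higher. Its summits were spread over 268 bp. All 4 variant libraries called 8 locus regions, and this was the only one of them without a WT call (12.5%, against 3.42% over all such regions, or 1.41% of the 71 against 0.368% of all merged regions). The regions nearest to the 3′ end were called in every library. At 6.9 kb beyond it, chr2:44976521-44976793 had 60 and 37 in DC, 33 and 42 in DE, and 46 and 38 in WT. Its DE to WT ratio was 0.595 in batch 1 (0.368 to 0.9504) and 1.19 in batch 2 (0.750 to 1.90), so the batches lay on either side of 1. At 1.7 kb, chr2:44981639-44982009 had 56 and 31 in DC, 54 and 39 in DE, and 45 and 46 in WT, with summits within 19 bp. Log2 differences at these regions ranged from -0.25 to 0.34 over the 3 contrasts, and none passed. Their signs changed with the scaling or with 1 library left out, so no direction is given.

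Over the locus as a whole, limma called no region in any contrast. Of the regions with a call in all 4 libraries, 7 were tested for DC against WT, 10 for DE against WT and 8 for DC against DE. Their median log2 difference was -0.21, 0.05 and -0.17, against -0.03, -0.02 and 0.01 over all 25604, 25873 and 27857 regions tested. Without a block, limma called 0.0% of all regions higher and 0.0% lower in each contrast, with an unadjusted p under 0.05 in 1460 regions for DC against WT (5.7%), 1277 for DE against WT (4.94%) and 897 for DC against DE (3.22%). In each contrast 1 locus region was among these, the one 31.6 kb inside the gene against WT and the one at 159.5 kb for DC against DE. With the block it called 3.14% higher and 1.33% lower in DC against WT, 0.661% and 0.282% in DE against WT, and 0.108% and 0.061% in DC against DE, and again no locus region. Both DC libraries were below both WT libraries in 2 of 7 locus regions (28.6%, against 17.2% of all), both DE libraries below both WT libraries in 4 of 10 (against 17.3% of all) and above them in 3 of 10 (30.0% against 15.3%). Both DC libraries were below both DE libraries in 2 of 8 (against 14.7% of all). With floor scaling none of these lower counts remained above 0, both DE libraries were above both WT libraries in 2 of 10 (18.9% of all), and both DC libraries were above both WT libraries in 4 of 7 (62.7% of all).

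Counted past 2-fold under the shared-region scaling, the locus regions with a ratio of at most 0.5 were 3 of 11 for DC to WT in batch 1 (27.3%, against 9.75% of all regions): the leading enhancer region and those 31.6 and 3.3 kb inside the gene. In batch 2, where the leading region had no ratio, there were 0 of 7 (4.7% of all). DE to WT gave 0 of 10 in batch 1 (4.28%) and 1 of 12 in batch 2 (6.11%). DC to DE gave 1 of 12 in batch 1 (6.17%), the leading region, and 1 of 8 in batch 2 (2.32%), the region at 159.5 kb. No locus region had a ratio of at least 2 in any of these 6 pairs, against 4.35% and 6.99% of all regions for DC to WT, 4.13% and 4.06% for DE to WT, and 3.1% and 5.69% for DC to DE. The counts depended on the scaling. With floor scaling, ratios of at most 0.5 were 1 of 11 for DC to WT in batch 1 (0.459% of all regions). For DC to DE they were 1 of 12 in batch 1 (0.224%), the leading region both times, and 1 of 8 in batch 2 (6.63%). The other pairs had 0, against 0.314% for DC to WT in batch 2 and 3.23% and 0.109% for DE to WT. Ratios of at least 2 were then 2 of 11 for DC to WT in batch 1, a smaller share than over all regions. In batch 2 there were 2 of 7 for DC to WT (33.3% of all). DE to WT gave 0 of 10 and 6 of 12 (5.13% and 47.0%), and DC to DE 3 of 12 and 0 of 8 (39.5% and 2.03%). The 6 of 12 for DE to WT was thus near the share over all regions.

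Regions within 10 kb of 19 genes that act with Zeb2 in dendritic and myeloid fate, among them Nfil3, Id2, Irf8, Irf4, Tcf4, Spi1 and Flt3, gave 0 calls without a block, among 69, 73 and 75 regions tested for DC against WT, DE against WT and DC against DE. With batch as a block, 1 of the 69 was called higher and 2 lower in DC against WT, against 3.14% and 1.33% of all regions. Of the 73 tested for DE against WT, 1 was called higher, against 0.661% of all. These are few calls, near the share over all regions, and are given as single values. At Id1, an inhibitor of E proteins, chr2:152735056-152735411 had 15 and 10 in DC and 30 and 57 in WT, with a log2 difference of -1.84 ± 0.38 (SE; adjusted p = 0.00159). At Batf3, a factor required for cDC1, chr1:191111111-191111675 had 46 and 15 in DC and 59 and 70 in WT, with a log2 difference of -1.37 ± 0.30 (adjusted p = 0.00355). At Cebpe, a C/EBP factor of late granulocytes, chr14:54705592-54707275 had 229 and 134 in DC and 84 and 101 in WT, with a log2 difference of 0.85 ± 0.20 (adjusted p = 0.00582). The call in DE against WT was at Zbtb46, a factor expressed in conventional dendritic cells, where chr2:181436227-181436677 had 92 and 42 in DE and 22 and 27 in WT, with a log2 difference of 1.27 ± 0.35 (adjusted p = 0.0359). DC against DE had 0 calls with the block.

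Regions like the leading enhancer region were sought among those with the same calls, so any region called in DC replicate 2 was left out. Outside the locus, 2124 regions had calls in the same 5 libraries, and 8 of them reached 25% of its mean scaled WT pileup. The nearest by Euclidean distance in log2 scaled pileup, at 1.496, lay in Klhdc10, at chr6:30403503-30403890, with 66 in DC replicate 1, 82 and 78 in DE, and 72 and 92 in WT. Its DC to WT ratio in batch 1 was 0.561. The next 4 were a pair of regions on chromosome 17 and 1 region each in Gphn and Jarid2. The nearest protein-coding gene to the pair, Esp38, lay 106.6 and 105.8 kb away. These 4 were at distances of 2.21 to 2.46 and had DC to WT ratios of 0.997 to 1.09 in batch 1. The missing call in DC replicate 2 was a condition of the choice, and these 4 regions did not have the low ratio. No list of artefact-prone regions was applied here.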

How the data were processed

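C/EBPα CUT&RUN lists of 6 libraries were used; the 2 IgG libraries were not analysed here. The submitters' processing notes name mm10, MACS2 2.2.9.1, HOMER, Bowtie2, Trimmomatic and SAMtools; no peak-calling control is stated. In the deposited lists the authors give each peak's fold enrichment (a ratio), −log10 p-value and −log10 q-value, and a score of 10 times the latter. The authors' deposited merged table has coordinates only and equals the 259446 regions rebuilt here. The named regions, locus and gene list were chosen with earlier results of these data known; the rules for naming regions stand in the text.

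The deposited p-value is the Poisson tail of pileup k at background λ, and the fold equals (k + 1)/(λ + 1). A whole k within 0.05 was found for at least 99.986% of peaks in each list, and 0 to 6.62% of peaks (DC replicate 2 highest, then DE replicate 2 at 2.87%) had a second whole solution, settled as the one at the library's floor, else the larger; the recovery was tested on simulated data. An uncalled library was given the highest pileup below its weakest called p-value at the batch's background. Ratio intervals are exact binomial. Scaled log2 pileups were compared with limma 3.58.1 (R 4.3.3, trend, Benjamini-Hochberg over all regions, 0.05), with 2 libraries per genotype and no block. The labels pair replicates by batch; deviations of the batches correlated with r of 0.548 (DC and WT), 0.415 (DE and WT) and 0.384 (DC and DE) over 23480 regions, so the block is a valid alternative. Python 3.11.15, numpy 2.4.6, pandas 2.3.3 and scipy 1.17.1 were used. Alternatives covered scaling, thresholds, merging, filters and left-out libraries.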

Additional observations from a re-analysis of the deposited data

Results flagged for a closer look

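Local background in batch 2 stood out at the leading enhancer region. In multiples of the unit step in which each library's background varies it was 60 in DE replicate 2 and 54 in WT replicate 2, against 4 in DC replicate 1, 8 in DE replicate 1 and 4 in WT replicate 1. Over all regions, 0.0627% of the regions of DE replicate 2 and 0.114% of those of WT replicate 2 had a background as far above the floor, against 8.40% in DC replicate 1, 8.30% in DE replicate 1 and 16.7% in WT replicate 1. Among regions with a pileup within 2-fold of this one the shares were higher, at 1.11% in DE replicate 2 and 3.75% in WT replicate 2, against 30.5% in DC replicate 1, 36.1% in DE replicate 1 and 62.0% in WT replicate 1. Ratios between 2 called pileups do not use the background. The batch 2 limits for DC at this region do, since the highest uncalled pileup of 35 was set at the background of batch 2. DC replicate 2 had no call and so no background value of its own. At shared summit positions libraries of the same batch mostly had equal steps (63.9% to 100%), and libraries of different batches seldom did (5.90% to 9.51%). Only positions with an unambiguous whole pileup and a background of at least 4 whole steps were compared. The source of the high background was not tested.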

How the results depend on the processing

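With peaks at a −log10 q of at least 2 the locus held 45 regions in place of 71. With 1 replicate left out, the WT regions were those of the 1 WT library kept, 24 in each. DC then had 11 of them in batch 1 and 7 in batch 2, and DE had 10 and 12. At the leading region, DC to WT in batch 1 was 0.181, and 0.354 with floor scaling, 0.296 unscaled and 0.232 with scaling on the 7 locus regions shared by all libraries, an alternative chosen after seeing the data. The batch 2 limit became 3.71-fold with floor scaling. DC to DE in batch 1 was 0.386, 0.280 and 0.267 under these 3. DE to WT was 1.06 unscaled in batch 1, and 1.69 with floor scaling and 0.690 with locus scaling in batch 2. The counts of locus ratios past 2-fold and of genotypes that did not overlap were also redone with floor scaling, an alternative added after seeing the data, and stand in the results above. The limma difference of DE against WT at the leading region was 0.32 with floor scaling; the cause was not tested. Floor scaling moved the median of all regions to 0.83 (DC against WT), 0.53 (DE against WT) and 0.32 (DC against DE).

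Limma counts over all regions, 0 without a block, were 1143 (DC against WT), 244 (DE against WT) and 47 (DC against DE) with batch as a replicate block, and 1011, 325 and 7 in 1 blocked fit of all 6 libraries, added after seeing the data. Leaving out 1 library gave 0 to 37, 0 to 152 and 0 to 4; a lone library was then assumed to vary like the others. The block also gave 3 and 1 calls near the listed genes in DC against WT and DE against WT. For the 24 region and contrast results of the locus, all 210 alternatives run left the adjusted p above 0.05, the block included. Of these, 24 changed sign, so no direction is given for the limma differences concerned. The 24 region and contrast results leave out the leading region, whose values for DE against WT are given above.

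With floor scaling the log2 difference turned positive for DC against DE 1.7 kb past the 3′ end (0.17) and 68.0, 31.6 and 5.2 kb inside the gene (0.10, 0.23 and 0.17). It did so for DC against WT 1.7 kb past the 3′ end (0.65) and 144.8 and 159.5 kb upstream (0.55 and 0.077). For DE against WT it did so 6.9 and 1.7 kb past the 3′ end (0.30 and 0.48) and 129.3 kb upstream (0.0034). Leaving out 1 library gave ranges that crossed 0. For DC against DE they were -0.71 to 0.023, -0.053 to 0.73 and -0.37 to 0.090 at 30.4, 6.9 and 1.7 kb past the 3′ end, and -0.45 to 0.044, -0.49 to 0.34 and -0.38 to 0.11 at 68.0, 31.6 and 5.2 kb inside the gene. For DC against WT they were -0.22 to 0.40 and -0.44 to 0.021 at 6.9 and 1.7 kb past the 3′ end and -0.086 to 0.41 at 68.0 kb inside. For DE against WT they were -0.64 to 0.14 at 6.9 kb past the 3′ end and -0.042 to 0.39 at 159.5 kb upstream. The cause of these changes was not tested.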
